A study of Drosophila melanogaster with 7 samples.

Results

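The 5 genes described here, Ef1alpha48D, Ef1alpha100E, Ef1beta, Ef1gamma and Ef2b, encode the factors that carry the cytosolic ribosome through peptide elongation in Drosophila melanogaster. They were picked by symbol out of the 15551 fly genes in the deposited gene table, and they were selected on their gene-level FPKM values (fragments per kilobase of transcript and per mapped read, scaled to library size, a level per length that allows genes to be set beside each other). Their gene-level differences between groups are therefore a description and carry no test. Isoform use, and the other genes of translation, were not used in that choice and are tested.

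Elongation factor 1 alpha, in its GTP form, brings aminoacyl-tRNA to the ribosome, and it leaves as the GDP form once the codon is matched. The beta, gamma and delta subunits of the exchange complex then help it to swap GDP for GTP, and elongation factor 2 spends GTP to move the ribosome to the next codon. Drosophila has a pair of genes for elongation factor 1 alpha, Ef1alpha48D and Ef1alpha100E, so that the same step can be supplied from either locus. Messenger RNAs of these factors are among the abundant transcripts of most animal cells.

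RNA was taken from nuclei of heads of adult flies, in which a GAL4 driver put the tag unc84-GFP on the nuclear membrane of chosen cells, so that antibody-coated beads could pull those nuclei down. The R57C10 driver covers mature neurons of every kind, the OK107 driver is active mainly in Kenyon cells, the principal cells of the mushroom body, and the Tdc2 driver is active mainly in neurons that make octopamine. All 3 groups share the tag. The remaining group was the dissected brain with all its cells, without selection of tagged nuclei. It is labelled nuclear RNA like the rest, but how its RNA was isolated is not given in the sources used here, so that cell content, nuclear or total RNA, and the way the RNA was taken cannot be told apart in any comparison with it. The tables hold 6 libraries of the 7 labelled samples: 1 of R57C10, 2 of OK107, called a and b, 2 of Tdc2, called a and b, and 1 of whole brain. Nothing in the labels says whether the libraries of a group came from separate flies, so the spread within the OK107 and Tdc2 pairs may be technical, and R57C10 and whole brain have no second library.

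Markers of the intended cells were high in OK107 and Tdc2, whereas those of neurons in R57C10 were mixed. The Kenyon cell gene ey stood at 248 and 259 FPKM in OK107 against 10.2 to 35.9 elsewhere, and Tbh, the enzyme that makes octopamine, at 1668 and 2159 FPKM in Tdc2 against 16.6 to 38.3 elsewhere. Of 5 neuron genes, elav, brp and para were highest in R57C10 among libraries with a value, elav at 277 FPKM against 153 to 223 elsewhere. The neuron gene n-syb was at 1096 FPKM in R57C10, below the 1541 and 1279 of Tdc2 and the 1112 of whole brain. Syt1 had no value in R57C10. Markers of cells outside these groups also differed between the libraries. The summed level of 5 fat body genes was 6045 and 5324 FPKM in Tdc2, 3889 in whole brain, 358 in R57C10, and 43.7 and 45.8 in OK107. That sum came mostly from the yolk protein genes Yp1, Yp2 and Yp3, and these 3 were highest in a Tdc2 library. The other 2 were highest in whole brain: Lsp2 at 40.8 FPKM there, against 1.57 and 5.03 FPKM in Tdc2, and Fbp1, which stayed at or under 0.551 FPKM in every library. The sum of 6 photoreceptor genes was 5527 and 4719 FPKM in Tdc2, 1229 and 1219 in OK107, 575 in R57C10 and 298 in whole brain, and all 6 were highest in a Tdc2 library. Glial genes were highest in whole brain in 5 of 5 cases, with a sum of 3228 FPKM against 91.7 to 505 elsewhere, and a 7-gene muscle sum ran from 58.3 in R57C10 to 455 in Tdc2 b. No marker was at 0 in any library, and markers lacking a value in a library were left out of the sums. These sums move with several results given next, and their part in them was not tested.

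Of the 5 genes, Ef1alpha48D differed most between libraries. Its level was 229 FPKM in R57C10, 289 and 278 FPKM in OK107 a and b, 2159.9 and 2218 FPKM in Tdc2 a and b, and 892 FPKM in whole brain. The Tdc2 pair differed by a factor of 1.03 between its own libraries. Tdc2 a stood 9.44-fold and Tdc2 b 9.70-fold above R57C10, and whole brain 3.90-fold above it. The gene ranked 8th and 7th from the top in the Tdc2 libraries, 38th in whole brain, and between 122nd and 183rd in the other 3, among the 14979 to 15045 genes with a value in each.

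**Figure D1:**
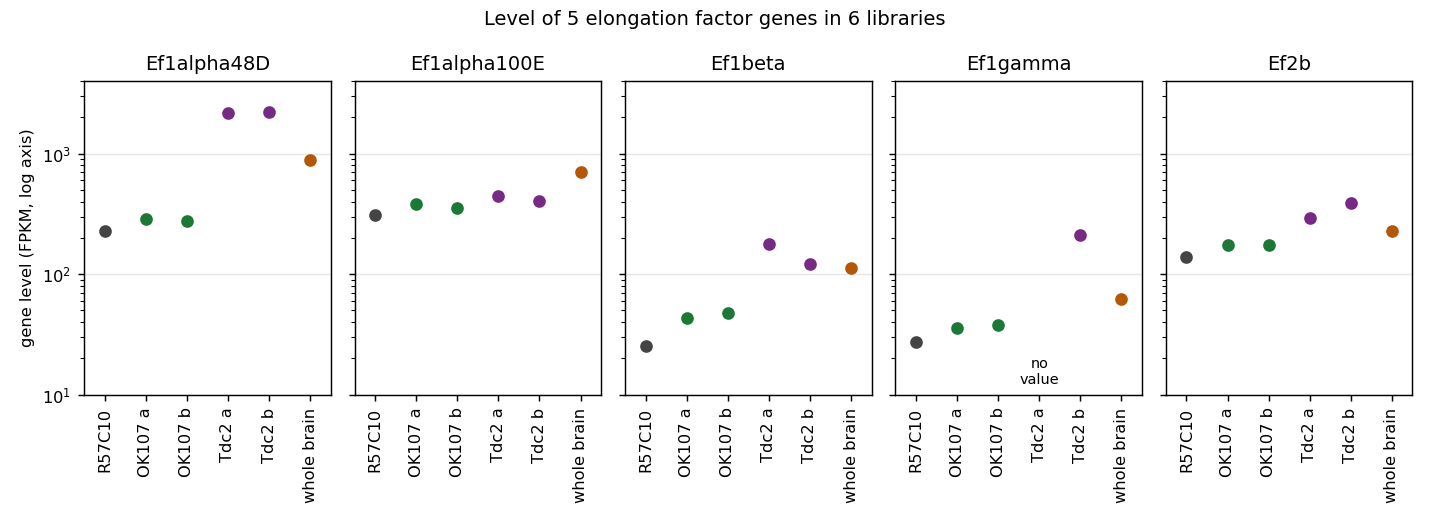
Gene level in FPKM on a log axis for each of the 5 elongation factor genes, with 1 point for each of the 6 libraries, coloured by group. Ef1alpha48D is at 229 FPKM in R57C10 and at 2159.9 and 2218 FPKM in Tdc2, whereas Ef1alpha100E lies between 312 and 709 FPKM; Ef1gamma has no value in Tdc2 a.

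Its copy Ef1alpha100E was the steadiest of the 5. It read 312 FPKM in R57C10, 384 and 357 in OK107, 446 and 402 in Tdc2 and 709 in whole brain. The highest library was 2.27 times the lowest, against 9.70 times for Ef1alpha48D. Whole brain was the high library, and the 5 libraries of tagged nuclei lay close together. Its means were 371 ± 19.3 FPKM in OK107 and 424 ± 30.8 in Tdc2 (SD, n = 2 each), and the nearest libraries of these groups, at 384 and 402 FPKM, were closer than the Tdc2 libraries were to each other.

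The balance between the copies differed between groups. Ef1alpha48D gave 42.3% of the summed level of both genes in R57C10, 42.9% and 43.8% in OK107, 82.9% and 84.7% in Tdc2, and 55.7% in whole brain. Ef1alpha100E was the more abundant copy in R57C10 and OK107, where the ratio of Ef1alpha48D to Ef1alpha100E was 0.732, 0.752 and 0.778. In Tdc2 that ratio was 4.85 and 5.52, and in whole brain it was 1.26. The summed level went from 541 FPKM in R57C10 and 673 and 635 FPKM in OK107 to 2605 and 2619.7 FPKM in Tdc2, with 1601 FPKM in whole brain. Most of the gap between Tdc2 and the other tagged groups came from Ef1alpha48D. The proteins are 463 and 462 residues long in the annotation. Their coding sequences were not compared here, so the split of 50-base reads between the genes is uncertain wherever the copies match.

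**Figure D2:**
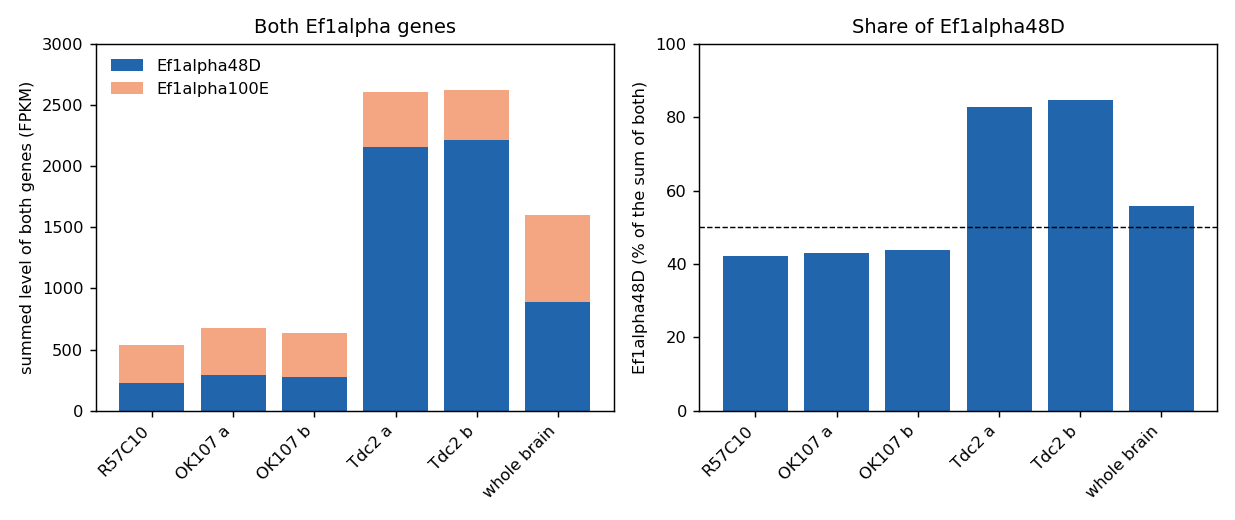
Left, level of Ef1alpha48D and Ef1alpha100E stacked in FPKM for each of the 6 libraries; right, Ef1alpha48D as a percentage of the sum of both, with the dashed line at 50%. The share is 42.3% to 43.8% in R57C10 and OK107, 82.9% and 84.7% in Tdc2, and 55.7% in whole brain.

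Ef1beta, the catalytic exchange subunit, was less abundant than either copy of its substrate in every library. Its level was 25.4 FPKM in R57C10, 43.5 and 47.6 in OK107, 178 and 121 in Tdc2, and 112 in whole brain. R57C10 was low, both Tdc2 libraries were high and whole brain lay just under Tdc2 b, at a ratio of 1.08 between them. The Tdc2 libraries were 7.00-fold and 4.78-fold above R57C10. Relative to the sum of both Ef1alpha genes, Ef1beta kept to between 0.0463 and 0.0750 in all 6 libraries, a narrower span than that of Ef1beta or of the sum.

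Ef1gamma, the scaffold subunit of the exchange complex, has no value in Tdc2 a, because the authors' software did not return an estimate there. Its other values were 27.2 FPKM in R57C10, 36.0 and 38.0 in OK107, 213 in Tdc2 b and 62.3 in whole brain. The single Tdc2 value was the high one, 7.85-fold above R57C10 and 3.42-fold above whole brain. Ef1gamma and Ef1beta encode partners in 1 complex, yet their ratio was not constant: 1.07 in R57C10, 0.830 and 0.798 in OK107, 1.76 in Tdc2 b and 0.554 in whole brain.

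Ef2b, the translocation factor, varied less than Ef1alpha48D and the exchange subunits. It stood at 139 FPKM in R57C10, 175 and 174 in OK107, 291 and 386 in Tdc2 and 226 in whole brain. Tdc2 was again high and R57C10 low, with whole brain between OK107 and Tdc2. The Tdc2 libraries were 2.09-fold and 2.77-fold above R57C10 and differed by a factor of 1.33 between themselves. Per unit of Ef1alpha message, Ef2b was at 0.258 to 0.275 in R57C10 and OK107, and at 0.112 and 0.147 in Tdc2 and 0.141 in whole brain.

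In order of level, 4 of the genes had R57C10 lowest, then OK107, then whole brain, then Tdc2. The exception was Ef1alpha100E, with whole brain on top and the 3 driver groups well below it, close to each other and in the same order. Judged by the ratio between their nearest libraries, some neighbours in this order were closer than Tdc2 a and b were to each other: OK107 and Tdc2 for Ef1alpha100E, whole brain and Tdc2 for Ef1beta, and every pair of neighbours for Ef2b. For Ef1gamma there is no Tdc2 pair to judge by. In bulk RNA, fewer cells of a type and less RNA per cell cannot be told apart. The implied number of reads was lowest for Ef1beta in R57C10, at 799, a counting error of 3.54%, and counting errors of all other values were smaller, down to 0.243% for Ef1alpha48D in Tdc2 b.

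Differences between groups were next read as log2(FPKM + 1), beside the median of all genes tested, since that median was not always near 0. For Tdc2 against R57C10 the difference was 3.25 for Ef1alpha48D, 2.93 for Ef1gamma (from Tdc2 b alone), 2.49 for Ef1beta, 1.26 for Ef2b and 0.44 for Ef1alpha100E, and the median of 9685 genes was 0.03. Only 0.227% of genes stood higher than Ef1alpha48D, which placed it at number 23, 0.454% stood higher than Ef1gamma, and 1.18% stood higher than Ef1beta. By contrast 10.4% stood higher than Ef2b and 28.6% higher than Ef1alpha100E. The names of the libraries also carry digits that read as a date. Within the date label shared by Tdc2 b and R57C10 the differences were 3.27, 2.93, 2.21, 1.46 and 0.36 in the same order of genes. Those of Ef1alpha48D and Ef2b were larger there than in the comparison of all libraries, and those of Ef1beta and Ef1alpha100E were smaller.

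OK107 stood below Tdc2 for all 5 genes, by log2 differences of -2.95 for Ef1alpha48D, -2.49 for Ef1gamma (from Tdc2 b alone), -1.67 for Ef1beta, -0.93 for Ef2b and -0.19 for Ef1alpha100E, where the median of all genes was 0.28. Within the date label shared by OK107 a, OK107 b and Tdc2 a the values were -2.93 for Ef1alpha48D, -1.94 for Ef1beta, -0.73 for Ef2b and -0.27 for Ef1alpha100E, and Ef1gamma had none. The value of Ef1alpha100E depended on scaling, at -0.49 after median centring and -0.02 after quantile normalization. This comparison and the one before share the Tdc2 libraries.

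OK107 against R57C10 gave small differences: 0.82 for Ef1beta, 0.43 for Ef1gamma, 0.32 for Ef2b, 0.31 for Ef1alpha48D and 0.25 for Ef1alpha100E. The median of all genes was 0.29, so that 48.7% of genes stood higher than Ef1alpha48D and 16.9% higher than Ef1beta. After centring each library on its median, 4 of the 5 genes changed sign, to -0.14 for Ef1alpha48D, -0.20 for Ef1alpha100E, -0.12 for Ef2b and -0.01 for Ef1gamma, and Ef1beta was at 0.37. The date label differs between these groups, and with the label as a term the difference was 0.35 for Ef1alpha48D, 0.27 for Ef1beta, 0.73 for Ef2b and 0.10 for Ef1alpha100E. Only Tdc2 holds both labels, so that term is set by the difference between Tdc2 a and b. It carries that difference into this comparison and does not measure a date effect in OK107 or R57C10.

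R57C10 stood below whole brain for all 5 genes, by -2.11 for Ef1beta, -1.96 for Ef1alpha48D, -1.18 for Ef1alpha100E, -1.17 for Ef1gamma and -0.69 for Ef2b, with a median of -0.21 over all genes. These groups have 1 library each and share the date label. After quantile normalization the value was -0.62 for Ef1alpha100E and -0.37 for Ef2b. The glial sum was 3228 FPKM in whole brain and 91.7 in R57C10, and the fat body sum was 3889 and 358. The muscle sum was 79.7 and 58.3, and the photoreceptor sum went the other way, at 298 and 575. The part of these sums in the differences was not tested.

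For Tdc2 against R57C10 the fat body, photoreceptor, muscle and glial sums stood higher along with Ef1alpha48D, Ef1beta, Ef1gamma and Ef2b. The part of these sums in that was not tested.

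In the authors' deposited table, which compares single libraries and lists a q-value only below 0.05, 4 of the 5 genes were listed for R57C10 against Tdc2 b, all but Ef1alpha100E, where 10.8% of genes were. For OK107 a against Tdc2 a the authors' deposited table listed Ef1alpha48D and Ef1beta, beside 8.83% of genes. For R57C10 against whole brain it listed Ef1alpha100E alone of the 5 in the authors' deposited table, beside 10.5% of genes. None of the 5 was listed in the authors' deposited table for R57C10 against OK107 b (7.93% of genes) or for OK107 a against OK107 b (0.12%). The genes were chosen on these same FPKM values, so nothing is read from these counts.

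Isoform use was a measure the choice of genes had not drawn on. In the annotation all current transcripts of each gene carry 1 coding sequence, so the isoforms differ outside it and the annotation gives each gene 1 protein, of 463 residues for Ef1alpha48D, 462 for Ef1alpha100E, 222 for Ef1beta, 431 for Ef1gamma and 844 for Ef2b. No exon of another gene overlaps those of the 5. Isoform names are those of the authors' table, and RB of Ef1alpha48D, RA of Ef1beta and RB of Ef2b are not in the current annotation.

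Isoform RA gave most of Ef1alpha48D: 82.6% of it in R57C10, 80.1% and 81.9% in OK107, 87.7% and 96.4% in Tdc2 and 94.5% in whole brain. The Tdc2 libraries were unlike each other here, since isoform RB read 266 FPKM in Tdc2 a and 80.4 FPKM in Tdc2 b. In Ef1alpha100E the leading isoform RC took 41.3% in R57C10, 52.3% and 37.4% in OK107, 74.2% and 57.5% in Tdc2 and 55.2% in whole brain. Its isoform RA was at 15.6% in R57C10, 11.1% and 14.5% in OK107, 2.03% and 5.69% in Tdc2 and 5.60% in whole brain, so that RC was higher and RA lower in both Tdc2 libraries than in any R57C10 or OK107 library. Ef2b was made mostly of RC, at 75.3% to 83.1%, and RA, at 16.9% to 24.7%, in all libraries. Its isoform RB was near the floor, at 3.43 FPKM in R57C10, 0 in OK107 a, OK107 b and Tdc2 a, 5.91 in Tdc2 b and 1.45 in whole brain. Ef1gamma was nearly all RB in R57C10 and OK107 a, at 100.0% in each, and RC added 6.79% in Tdc2 b and 13.2% in whole brain. In OK107 b, RB was at 88.1% and RA at 11.9%, so its RB share lay between the 91.8% of Tdc2 b and the 85.0% of whole brain. Ef1beta has a single isoform in the table.

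**Figure D3:**
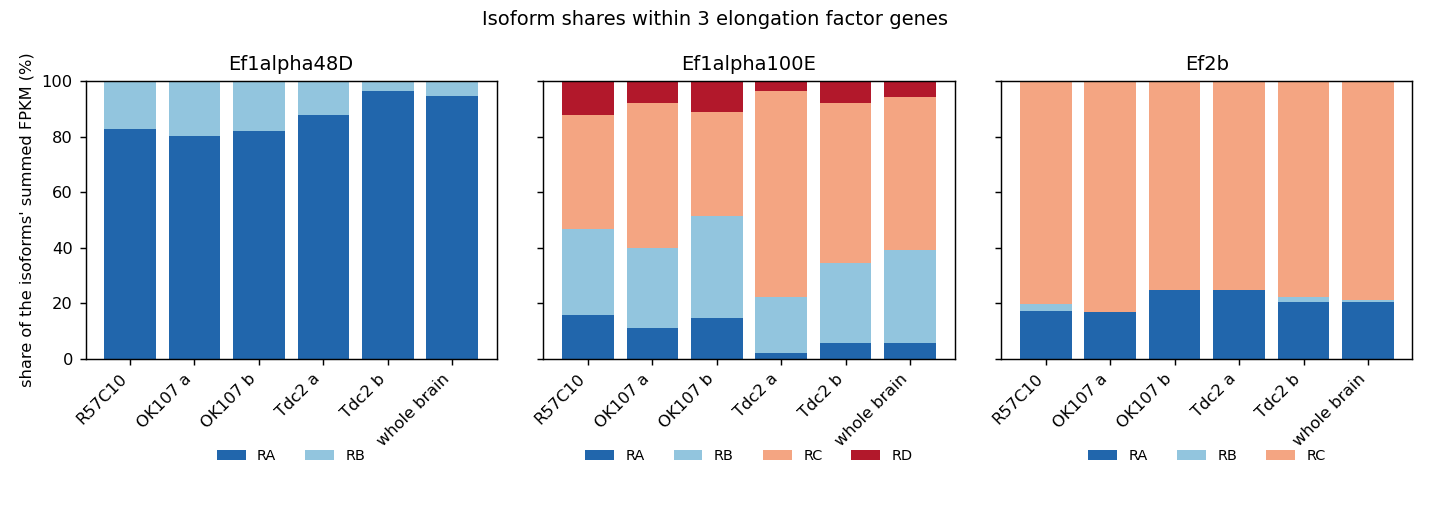
Share of each isoform in the summed isoform FPKM of its gene, in percent, stacked for Ef1alpha48D, Ef1alpha100E and Ef2b in each of the 6 libraries. Ef1alpha100E isoform RC is at 74.2% and 57.5% in Tdc2 and at 37.4% to 52.3% in R57C10 and OK107, and Ef2b has RC at 75.3% or more throughout.

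Isoform use was tested with limma's diffSplice (Simes test for each gene, Benjamini-Hochberg adjustment over all genes with at least 2 isoforms above the floor), and 3 of the 5 genes could be tested. None of the 3 passed an adjusted p of 0.05 in any comparison, whereas 3.39% of genes passed for OK107 against R57C10, 6.78% for Tdc2 against R57C10, 13.4% for OK107 against Tdc2 and 30.2% for R57C10 against whole brain. At an unadjusted p under 0.05 the counts were 0, 1, 1 and 0, and the gene was Ef1alpha100E both times. Its diffSplice adjusted p was 0.124 for Tdc2 against R57C10 and 0.0761 for OK107 against Tdc2. In the latter, isoform RA stood 1.61 log2 units higher in OK107 than the gene's other isoforms did, and RC differed by -1.56. For Ef1alpha48D the adjusted p was 0.345 and 0.168 in the same comparisons, and for Ef2b 0.379 and 0.811. A p that misses the threshold does not show that isoform use was alike. For OK107 against R57C10 the Ef2b isoform with the smallest diffSplice p was RB, which is near the floor. With isoforms of at least 5 FPKM the diffSplice adjusted p of Ef2b in that comparison was 0.762, against 0.318 in the main fit.

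Those outcomes changed when single libraries were left out. The number of all genes passing moved in these fits too, over the ranges given at the end. What follows is therefore not read as a result about the 3 genes. For OK107 against R57C10 and R57C10 against whole brain, no Tdc2 library enters the difference itself. Leaving out a Tdc2 library there changes only the estimate of spread, which then rests on the OK107 pair. Without Tdc2 a, Ef1alpha48D passed diffSplice for Tdc2 against R57C10 (adjusted p = 0.0274), OK107 against Tdc2 (adjusted p = 0.0151) and R57C10 against whole brain (adjusted p = 0.0164), and Ef2b for OK107 against R57C10 (adjusted p = 0.0280) and R57C10 against whole brain (adjusted p = 0.0401). Without Tdc2 b, Ef1alpha100E passed diffSplice for Tdc2 against R57C10 (adjusted p = 0.0275) and OK107 against Tdc2 (adjusted p = 0.0218), and Ef2b for Tdc2 against R57C10 (adjusted p = 0.0127). Without Tdc2 b, Ef1alpha48D and Ef2b also passed for R57C10 against whole brain and Ef2b for OK107 against R57C10, at the same adjusted p as without Tdc2 a. In all other fits that left out 1 library, none of the 3 passed.

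Genes with the most similar profile were found among 4590 genes by the root mean square difference of log2(FPKM + 1) across the 6 libraries, each gene centred on its mean. For Ef1alpha48D they were CG15096 (0.212), Glt (0.214), which encodes the secreted protein glutactin, and CG15293 (0.264). For Ef1alpha100E they were CG9253 (0.0459), RagA (0.0614), a GTPase that signals amino acid supply to TOR, and CG3793 (0.0625). Ef1beta had CG3902 (0.198), RpLP0 (0.224), a protein of the ribosomal stalk where elongation factors dock, and CG6287 (0.225). For Ef2b they were ade5 (0.0593), an enzyme of purine synthesis, ACC (0.0825), the enzyme that commits carbon to fatty acid synthesis, and RpL17 (0.0922), a ribosomal protein. Ef1gamma was compared over 5 libraries, and its nearest genes were CG14629 (0.0994), Zasp66 (0.131), a muscle Z-disc protein, and Obp99c (0.137), an odorant-binding protein. The distance between the copies Ef1alpha48D and Ef1alpha100E was 1.25, the widest among the 10 pairs of the 5 genes, and that between Ef1alpha48D and Ef1gamma, at 0.354, was the narrowest.

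The other cytosolic factors of elongation and termination were listed by function, with earlier results of these data known. Of 8 such genes, 3 were higher in OK107 than in R57C10 and none lower by limma, 2 were higher and 1 lower in Tdc2 than in R57C10, 4 were higher and 1 lower in OK107 than in Tdc2, and 1 was higher and 4 lower in R57C10 than in whole brain. Over all genes tested, limma called 21.2% higher and 3.6% lower in OK107 than in R57C10, 20.6% and 15.4% in Tdc2 than in R57C10, 34.4% and 13.9% in OK107 than in Tdc2, and 22.4% and 32.8% in R57C10 than in whole brain. The median log2 difference of the 8 was 0.56 for OK107 against R57C10, 0.04 for Tdc2 against R57C10, 0.44 for OK107 against Tdc2 and -0.47 for R57C10 against whole brain. For OK107 against R57C10 none of the 8 was called after median centring, after quantile normalization, without OK107 a or without OK107 b, and 8 were called higher without Tdc2 a and 7 without Tdc2 b. For OK107 against Tdc2 the 4 higher became 1 after median centring, without OK107 a or without OK107 b, and 6 without Tdc2 a. For R57C10 against whole brain the 4 lower became 2 after either rescaling or without either OK107 library, and 6 without either Tdc2 library.

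eEF1delta, the further exchange subunit beside Ef1beta and Ef1gamma, did not stand with them in Tdc2. Its level was 7.46 FPKM in R57C10, 13.8 and 14.6 in OK107, 13.5 and 12.0 in Tdc2 and 20.7 in whole brain. OK107 and Tdc2 lay side by side, and the ratio of eEF1delta to Ef1beta was 0.294 to 0.318 in R57C10 and OK107, 0.0757 and 0.0989 in Tdc2 and 0.184 in whole brain. By limma eEF1delta was higher than in R57C10 both in OK107 (log2 difference 0.85, SE 0.149, adjusted p = 0.0190) and in Tdc2 (0.70, adjusted p = 0.0211), and it was lower in R57C10 than in whole brain (-1.36, adjusted p = 0.00286). Between OK107 and Tdc2 its difference was 0.15 (limma adjusted p = 0.335). The call against R57C10 in OK107 was lost after median centring (limma adjusted p = 0.127), after quantile normalization (0.120), without OK107 a (0.136) and without OK107 b (0.184), and that in Tdc2 without either OK107 library (0.101 each).

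eIF-5A, now named eEF5, which helps the ribosome through proline-rich stretches, was called higher in Tdc2 than in either other driver group. It read 53.5 FPKM in R57C10, 95.8 and 101 in OK107, 197 and 153 in Tdc2 and 207 in whole brain. R57C10 was low, OK107 was between, and Tdc2 and whole brain were high. Limma found it higher in Tdc2 than in R57C10 (1.68, SE 0.177, adjusted p = 0.00371), lower in OK107 than in Tdc2 (-0.81, adjusted p = 0.0112) and lower in R57C10 than in whole brain (-1.93, adjusted p = 0.00203). It was also called higher in OK107 than in R57C10 (0.87, adjusted p = 0.0278), which was lost after median centring (limma adjusted p = 0.165), after quantile normalization (0.0582), without OK107 a (0.120) and without OK107 b (0.162). The call between OK107 and Tdc2 was lost without OK107 a (limma adjusted p = 0.0825) and without OK107 b (0.0688).

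The GTPase CG33158 and 3 factors of termination and ribosome rescue were higher in OK107 than in Tdc2. CG33158, which resembles elongation factor 2, was at 4.38 FPKM in R57C10, 6.76 and 6.57 in OK107, 2.38 and 2.65 in Tdc2 and 2.07 in whole brain. It was higher in OK107 than in Tdc2 by limma (log2 difference 1.12, adjusted p = 0.00354). It was also the 1 gene of the 8 called lower in Tdc2 than in R57C10 (-0.61, limma adjusted p = 0.0345) and higher in R57C10 than in whole brain (0.81, limma adjusted p = 0.0173), and the first of these was lost without OK107 a (0.152) or b (0.151) and the second likewise (0.0824 and 0.0820). The release factor eRF1 (0.53, limma adjusted p = 0.0118) and the factors HBS1 (0.69, limma adjusted p = 0.0139) and pelo (0.51, limma adjusted p = 0.0277), which free stalled ribosomes, were higher in OK107 than in Tdc2. All 3 calls were lost after median centring, and without OK107 a or OK107 b at limma adjusted p between 0.106 and 0.248, and pelo was also lost after quantile normalization (0.211). EfSec, the selenocysteine factor, was higher in OK107 than in R57C10 (0.69, limma adjusted p = 0.0391) and lower in R57C10 than in whole brain (-0.61, limma adjusted p = 0.0457), and Elf, now named eRF3, was lower in R57C10 than in whole brain (-0.63, limma adjusted p = 0.0320). These 3 calls too were lost after either rescaling, and without OK107 a or OK107 b at limma adjusted p between 0.101 and 0.288. Both calls of EfSec were also lost with no floor (limma adjusted p = 0.0556 and 0.0564), the first with the date label as a term (0.0634) and the second with a pseudocount of 5 (0.0508).

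Among 5 mitochondrial elongation and recycling factors with a value, 0 passed for OK107 against R57C10 by limma, and 1 did at an unadjusted p under 0.05. Of all 9687 genes, 21.2% were called higher and 3.6% lower there, and 4067 had an unadjusted limma p under 0.05. In Tdc2 against R57C10, 1 of the 5 was called higher, beside 20.6% of all genes. In OK107 against Tdc2, 1 was called higher, beside 34.4%, and in R57C10 against whole brain 3 were called lower, beside 32.8%. EfTuM, the mitochondrial counterpart of Ef1alpha, was at 9.55 FPKM in R57C10, 13.3 and 12.5 in OK107, 16.4 and 14.5 in Tdc2 and 33.6 in whole brain. Its Tdc2 level was higher than that of R57C10 (0.64, limma adjusted p = 0.0276), a call lost without OK107 a (0.123) or b (0.122), after median centring (0.0681) and after quantile normalization (0.0717), and R57C10 was below whole brain (-1.71, limma adjusted p = 0.00166). CG6412, the exchange factor for EfTuM, likewise stood under whole brain in R57C10 (-1.74, limma adjusted p = 0.00258), as did ico, the mitochondrial translocation factor (-0.89, limma adjusted p = 0.0246, but 0.0528 and 0.0530 without OK107 a and b, 0.0764 after median centring and 0.0994 after quantile normalization). EF-G2, now named mRRF2, was higher in OK107 than in Tdc2 (0.62, limma adjusted p = 0.0155), which was lost without OK107 a (0.158) or b (0.148) and after median centring (0.110) and quantile normalization (0.0740). CG12736 passed in no comparison, and its levels were between 4.67 and 7.22 FPKM. A further gene of the list, waw, has no value in the table.

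Ribosomal protein genes lay on the side of Ef1alpha48D, Ef1beta and Ef1gamma in Tdc2. Over all genes, limma called 20.6% higher and 15.4% lower in Tdc2 than in R57C10, and 34.4% and 13.9% in OK107 than in Tdc2. It called 22.4% higher and 32.8% lower in R57C10 than in whole brain, and 21.2% and 3.6% in OK107 than in R57C10. Of 82 ribosomal protein genes tested, 76 were higher and 1 lower in Tdc2 than in R57C10 by limma. Their median log2 difference there was 1.47, against 0.03 over all genes. RpLP0 differed by 2.39 (limma adjusted p = 0.00137), RpS2 by 2.18, RpL4 by 2.19 and RpL3 by 1.99. The lower gene was RpS10a (-0.63), named after its value was seen. In OK107 against Tdc2, 69 were lower and 1 higher (median -1.01), from 40 lower without OK107 a to 74 without Tdc2 a, and RpS7 differed by -1.87. In R57C10 against whole brain, 79 were lower and 1 higher (median -1.46), RpS15 by -1.73 and RpL7 by -1.61. Against R57C10, 30 were higher in OK107 and none lower (median 0.48, where all genes had 0.29), among them RpL18 at 0.90 and RpL22 at 0.90. That count was 1 without OK107 a, 0 without OK107 b and 56 without either Tdc2 library, 13 after quantile normalization and 48 with the date label as a term, and after median centring it was 0 higher and 1 lower. The 3.25 of Ef1alpha48D and 2.93 of Ef1gamma in Tdc2 against R57C10 were above the highest ribosomal protein gene, RpLP0. Ef1beta, at 2.49, was close to the 2.39 of RpLP0, and their order rests on Tdc2 a. Within the date label shared by Tdc2 b and R57C10, Ef1beta was at 2.21. RpLP0 read 112 and 109 FPKM in Tdc2 a and b, where Ef1beta read 178 and 121. The 1.26 of Ef2b was below the list's median, and the 0.44 of Ef1alpha100E was below all but RpS10a.

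**Figure D4:**
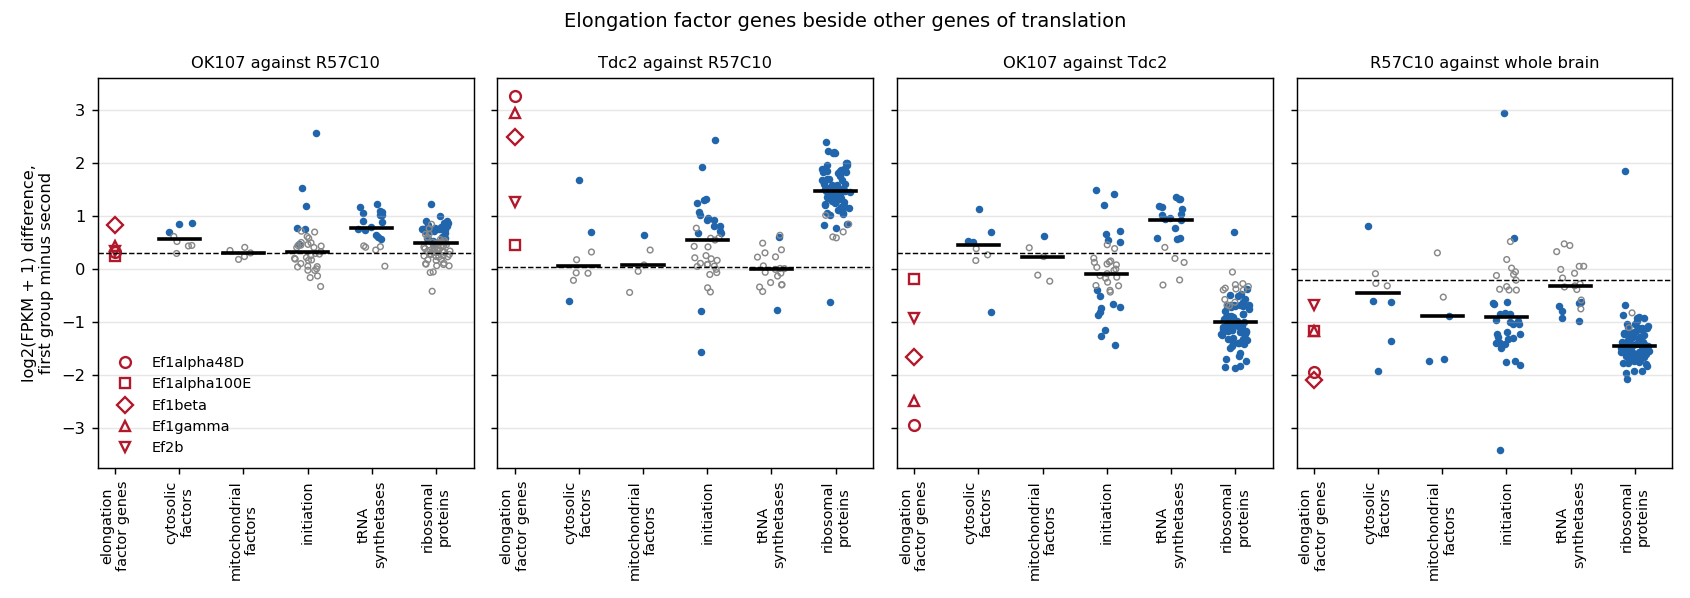
Log2(FPKM + 1) difference, first group minus second, for 4 comparisons: red symbols are the 5 elongation factor genes, small points are the genes of the other lists (blue filled where limma's adjusted p was under 0.05, grey open otherwise), black bars are list medians and the dashed line is the median of all genes tested. In Tdc2 against R57C10, Ef1alpha48D at 3.25 lies above every point of the lists, the ribosomal protein median is 1.47 and the aminoacyl-tRNA synthetase median is -0.01.

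Cytosolic aminoacyl-tRNA synthetases, which load the tRNAs that Ef1alpha carries, did not share the Tdc2 pattern. Of 20, 1 was higher and 1 lower in Tdc2 than in R57C10 by limma (median -0.01), namely Aats-gln (0.60, limma adjusted p = 0.0375) and Aats-trp (-0.78, limma adjusted p = 0.0216), and neither passed without OK107 a or b (0.154 each and 0.0861 and 0.0860). The counts were 2 higher and 5 lower without Tdc2 a, 5 higher and 2 lower without Tdc2 b, and 2 higher and 4 lower with the date label as a term. Aats-gln was also lost after median centring (limma adjusted p = 0.0799), quantile normalization (0.0995) and with no floor (0.0525), and either rescaling gave 0 higher and 2 lower. They were higher in OK107 instead: 15 of 20 against Tdc2 with none lower (median 0.93), led by CG15100 (1.35, limma adjusted p = 0.00191), Aats-val (1.32) and CG17259 (1.31). Without OK107 a the count was 7 and without OK107 b it was 9. Against R57C10, 15 of 20 were also higher in OK107 with none lower (median 0.77), among them Aats-lys (1.22) and Aats-glupro (1.09), but the count was 4 after median centring or quantile normalization, 0 without OK107 a or OK107 b and 19 without Tdc2 a or Tdc2 b. In R57C10 against whole brain, 6 were lower and none higher (median -0.34), from 2 lower without OK107 a or b to 9 lower and 3 higher without Tdc2 a or b, and with 2 lower and 3 higher after either rescaling. The largest of these was CG5706 at -0.98. The 6 of 20 called lower were near the 32.8% of all genes called lower in that comparison, where the median of all genes was -0.21. Limma called 20.6% of all genes higher and 15.4% lower in Tdc2 than in R57C10. It called 34.4% higher in OK107 than in Tdc2 and 21.2% higher in OK107 than in R57C10.

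Initiation factors were divided. In Tdc2 against R57C10, 15 of 37 were higher and 2 lower by limma (median 0.54), with Thor, the inhibitor of cap-dependent initiation, at 2.42, CG7414 at 1.91, the helicase eIF-4a at 1.23 and eIF3-S9 at 1.31. The 2 lower genes were CG10881 (-1.58) and eIF6 (-0.80), named after their values were seen, and the higher count was 10 without OK107 a or b. In OK107 against Tdc2, 7 were higher and 10 lower (median -0.09), CG7414 by -1.45 and eIF-2beta by 1.48, from 3 higher and 4 lower without OK107 a or b to 10 higher and 17 lower without Tdc2 a, and with 3 higher and 17 lower after median centring. In OK107 against R57C10, 6 of 37 were higher and none lower, a smaller share than the 21.2% of all genes called higher, and their median of 0.32 was near the 0.29 of all genes. They included Thor at 2.55 and eIF-2beta at 1.52, and the count was 3 without OK107 a, 2 without OK107 b and 21 without either Tdc2 library. It was also 3 after either rescaling, with 2 lower after median centring, and 14 with the date label as a term. R57C10 had 25 of 38 lower than whole brain and 2 higher (median -0.92), CG17737 by -1.74 and eIF5 by -1.40. Over all genes, 20.6% were higher and 15.4% lower in Tdc2 than in R57C10, 34.4% and 13.9% in OK107 than in Tdc2, and 22.4% and 32.8% in R57C10 than in whole brain. The fat body, photoreceptor, muscle and glial sums were higher in Tdc2 than in R57C10, as given above. The glial and fat body sums were also higher in whole brain than in R57C10. The part of these sums in the counts of these lists was not tested.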

How the data were processed

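RNA, labelled nuclear in all samples, was amplified with a NuGEN Ovation kit and sequenced as 50-base reads, per the labels, which do not say in the sources used here how whole brain RNA was isolated. CASAVA 1.8, TopHat 1.4.0, Cuffdiff 1.3.0, bedtools 2.15 and genome build dm3 are named, per the submitters' processing notes. The deposited FPKM of genes and isoforms are Cuffdiff estimates, and values whose Cuffdiff status failed are blank, per the file headers. For pairs of libraries the authors also deposited q-values. Strand use, the annotation and any pooling are not given in the sources used here. The tables repeat some libraries, and 8 further columns of FPKM were not used. Of 92 spike-in species, 0 read above 0 in OK107 a and in Tdc2 a. The number was 70 in OK107 b, 65 in Tdc2 b, 60 in R57C10 and 58 in whole brain. Libraries that share a date label, and those of the same pair, thus differed in spike-in reads, and the part of this in the differences was not tested. Depth was estimated from steps between low FPKM of 5619 genes with 1 isoform: 25.0 to 65.4 M implied reads a library, with 57.4% to 64.6% of values within 0.2 of a whole read, so counting errors are approximate.

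Groups came from sample titles. Differences were fitted with limma 3.58.1 under R 4.3.3, with robust and trended variance, on log2(FPKM + 1), which understates differences of low genes, over genes reaching 1 FPKM in 2 or more libraries, with Benjamini-Hochberg adjustment and a threshold of 0.05. The 5 libraries of tagged nuclei shared 1 fit, and whole brain was fitted with all 6, with 2 residual degrees of freedom. The spread of R57C10 and whole brain, with 1 library each, was taken from the OK107 and Tdc2 pairs. Isoform use was tested with diffSplice on isoforms over the same floor. The fits were tested on simulated data. Ef1gamma was fitted without Tdc2 a. Whether Tdc2 a and b, or OK107 a and b, match the replicate numbers of the labels is not known. Transcript lengths came from the Ensembl BDGP6 annotation, which is not the authors' build, so no coordinates are given, and sequences were not used here.

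The 5 genes, the gene lists and the tests were chosen with earlier results of these data known. The text names the 5 genes, every gene of the lists of other cytosolic and mitochondrial factors, up to 4 genes a comparison from the other lists by smallest p among those passing, and the 3 genes most like each of the 5 with a mean of at least 10 FPKM. Current symbols of 14782 genes were matched by gene number. The alternatives were other pseudocounts (0.1 and 5), no floor, median centring, quantile normalization, the date label as a term, isoforms of at least 5 FPKM, and leaving out each OK107 and Tdc2 library in turn.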

Additional observations from a re-analysis of the deposited data

How the results depend on the processing

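No paired analysis was possible because the column names carry no replicate numbers, so no replicate block could be fitted. The direction of the 5 genes for Tdc2 against R57C10, OK107 against Tdc2 and R57C10 against whole brain was kept under every alternative that gave a value, and Ef1gamma had none in either Tdc2 comparison without Tdc2 b. Counts of genes passing limma for OK107 against R57C10 (2404) moved to 1403 with quantile normalization and 3630 with the date label as a term, and ran from 416 to 5721 as 1 library was left out. For Tdc2 against R57C10 (3483) the count was 5254 with the date label as a term and 1990 to 5903 with 1 library left out, and for OK107 against Tdc2 (4690) it was 1197 to 6437. Leaving out an OK107 library lowered each of these counts and leaving out a Tdc2 library raised them. For R57C10 against whole brain (5346) the count ran from 3766 to 7196. Genes passing for isoform use in OK107 against R57C10 (91) numbered 138 and 139 with pseudocounts of 0.1 and 5, and 0 to 199 with 1 library left out. Those ranges were 38 to 417 for Tdc2 against R57C10 (182), 43 to 546 for OK107 against Tdc2 (359) and 361 to 1010 for R57C10 against whole brain (823). For Ef1alpha100E in OK107 against Tdc2 the diffSplice adjusted p was 0.0433 with a pseudocount of 5.

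The split of limma calls also moved with scaling. For OK107 against R57C10 it was 2055 higher and 349 lower, but 805 and 1572 once medians were centred and 756 and 647 once quantiles were matched. For OK107 against Tdc2 the 3340 higher and 1350 lower became 1381 and 2093, then 1797 and 1792. For Tdc2 against R57C10 the 1991 and 1492 became 1805 and 2296, then 1659 and 1964. For R57C10 against whole brain the 2169 and 3177 became 3074 and 2107, then 2456 and 2108. Of the alternative values for named genes of the lists, 847 kept their side of the threshold, 97 lost a call and 36 gained one, and the cause was not tested. Depth limited Ef1beta in R57C10 most among the 5 genes, and the number of libraries limits every difference.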
